A study of Mus musculus with 32 samples.

Results

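The p53 response was examined through 10 genes, Trp53 itself and 9 genes that p53 is known to switch on (Cdkn1a, Mdm2, Ccng1, Trp53inp1, Bbc3, Bax, Eda2r, Zmat3 and Phlda3). They were taken as a list of symbols, each symbol matched 1 Ensembl gene identifier of the count table, and together they are 10 of the 41388 genes counted. The 10 genes and all further lists were chosen with earlier results of these data known. Counts of called genes set beside the share over all genes are therefore descriptions of these lists and not an independent test. The question was whether chondrocytes infected with a virus, and in particular with a virus carrying Cre recombinase, carry more of these transcripts than cells without virus or with a GFP virus, as a check for a DNA damage response.

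RNA was sequenced from primary chondrocytes of newborn mouse sternum, in 32 libraries that fall into 16 conditions with 2 libraries each. Wild-type (WT) C57BL/6 cells received no virus and were left untreated, given FX11 (40 µM, an inhibitor of lactate dehydrogenase), given IL-1b (10 ng/mL, an inflammatory cytokine) or given both for 24 h. Cells with loxP sites on both alleles of Ldha, Nampt or Nfkbiz (f/f) were infected with an adenovirus that makes eGFP (GFP virus) or with one that makes Cre and eGFP (Cre virus), and were then kept with or without IL-1b for 24 h. No floxed culture without virus and no infected WT culture was analysed here, so the virus and the mouse line cannot be told apart in a comparison with uninfected cells. Every Cre library also had less of a floxed gene's transcript, so Cre and the loss of that gene cannot be told apart either. The labels do not say whether the 2 libraries of a condition came from separate animals, and the p-values therefore measure only the spread between these libraries.

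p53 is a transcription factor that is held low in unstressed cells because Mdm2, itself a p53 target, marks it for degradation. Broken DNA activates kinases that release p53 from Mdm2, and p53 then binds a palindromic DNA element near its target genes and raises their transcription. Much of the control of p53 is on the protein, so its own mRNA need not follow its activity, and the transcripts of its targets are the usual readout in RNA data.

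The p53 element consists of a pair of 10-base sites, and the 250 bases upstream of the RefSeq start sites (build GRCm38.p6) were searched for the full 20-base consensus on both strands, which read the same because the consensus is a palindrome. An entry was found for 8 of the 10 genes, Trp53inp1 and Zmat3 being without one. The best matches are shown for the 5 genes whose stretches come closest to the element, and binding by p53 was not measured. Capitals mark the 20 bases aligned to the element, with 5 bases on either side.
Cdkn1a: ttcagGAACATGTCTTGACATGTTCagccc
Ccng1: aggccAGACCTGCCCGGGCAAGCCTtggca
Trp53: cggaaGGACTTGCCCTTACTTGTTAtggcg
Bbc3: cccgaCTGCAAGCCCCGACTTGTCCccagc
Bax: tgacaAGCATATCCCAGGCAAGCTTtgaac
For genes with more than 1 start the closest match is shown, whereas the shares of promoters below count every start. The Cdkn1a stretch is at chr17:29090923-29090952 on the plus strand, and its element departs from the consensus at 1 base. Another start of Cdkn1a had 5 mismatches at best. The Ccng1 stretch, at chr11:40755457-40755486 on the minus strand, also departs at 1 base. Matches with at most 1 mismatch were present in 25 of 32841 mouse promoters of the same length (0.0761%).

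The other 3 elements were weaker matches, with 3 mismatches each. They lie at chr11:69580279-69580308 on the plus strand for Trp53, at chr7:16309481-16309510 on the plus strand for Bbc3 and at chr7:45467085-45467114 on the minus strand for Bax. Other starts of Bbc3 had 5 and 8 mismatches at best. A match with at most 3 mismatches was present in 5.32% of promoters. In the promoters of Mdm2 and Phlda3 the best match had 5 mismatches and in that of Eda2r 6, and 71.1% of all promoters hold a match with at most 5. These counts describe letters in a short window and say nothing of binding.

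Libraries held between 15830658 and 39959888 gene counts (median 25363482), and all values below are CPM values (counts relative to the library total) after trimmed-mean (TMM) scaling unless RPKM, which also divides by gene length, is named. The floxed genes fell in their own lines. Ldha was 876 to 1562 CPM in the GFP libraries of its line and 70.6 to 120 CPM in the Cre libraries, and Nampt was 54.7 to 66.7 CPM against 4.53 to 6.80 CPM. Nfkbiz was 228 to 233 CPM against 29.1 to 32.0 CPM with IL-1b, and 16.0 to 16.9 CPM against 8.18 to 9.55 CPM without it. The summed level of 9 chondrocyte markers was 13400 CPM or higher in each of the 24 infected libraries. A pair of WT libraries went against their labels. In the second library set, the library labelled IL-1b had 0.79 CPM of the IL-1b-induced gene Mmp3 and the library labelled FX11 had 2033 CPM. They entered no reported test, and the one labelled FX11 entered only an alternative in which FX11 libraries counted as uninfected.

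Per unit of gene length, Cdkn1a had the highest mean of the 10 transcripts in GFP-infected cells without IL-1b, at 296 ± 91.4 RPKM (SD, n = 6 libraries). Bax (169 ± 35.5 RPKM), Ccng1 (123 ± 25.6 RPKM) and Phlda3 (89.6 ± 15.6 RPKM) followed. Trp53 was at 49.3 ± 7.72 RPKM, Mdm2 at 30.4 ± 5.62 RPKM and Bbc3 at 24.6 ± 1.75 RPKM. Trp53inp1 (16.7 ± 4.91 RPKM), Zmat3 (15.8 ± 1.48 RPKM) and Eda2r (5.44 ± 0.838 RPKM) were the least abundant. The SD ranges of Cdkn1a and Bax, of Bax and Ccng1, of Ccng1 and Phlda3, of Mdm2 and Bbc3, and of Trp53inp1 and Zmat3 overlapped. The order within those pairs is not resolved by these SDs, which also hold differences between lines. Within each line the means kept the order given for all of these pairs but Trp53inp1 and Zmat3.

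Infected cells carried more p53 target RNA than uninfected WT cells, with either virus. Without IL-1b, 7 of the 10 genes were higher with GFP virus than without virus at an adjusted p of 0.05 or less, against 4.84% of all 15832 genes tested, and 9 of the 10 were higher with Cre virus, against 8.33%. No member was called lower. The median log2 difference of the 10 was 0.64 for GFP virus and 0.96 for Cre virus, beside medians of 0.02 and 0.01 over all genes tested. Both comparisons use the same 2 uninfected libraries, so their values are given side by side and are not independent. The fit held no term for the line, so the 6 libraries of each virus pool 3 lines that differ in level. Mean Cdkn1a with GFP virus was 497 CPM in Ldha f/f, 560 CPM in Nampt f/f and 915 CPM in Nfkbiz f/f, against 419 CPM without virus. For Trp53inp1 these means were 78.6, 98.1 and 147 CPM, against 68.4 CPM. Where libraries are said not to overlap, here or below, the share of all genes for which that holds was not taken.

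Eda2r, a death-domain receptor of the TNF receptor family, showed the largest difference of the 10. It was 16.3 and 14.9 CPM in the uninfected libraries, 26.7 to 37.9 CPM (median 31.9) with GFP virus and 41.9 to 50.5 CPM (median 47.3) with Cre virus. The 3 sets of libraries did not overlap. The log2 difference from uninfected cells was 1.06 ± 0.15 (SE) with GFP virus (adjusted p = 0.000938) and 1.61 ± 0.15 with Cre virus (adjusted p = 4.29e-05).

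The growth-arrest genes stood in the same order of medians. Ccng1, which encodes cyclin G1, was 225 and 230 CPM without virus, 330 to 569 CPM (median 406) with GFP virus and 484 to 645 CPM (median 562) with Cre virus. All 12 infected libraries lay above both uninfected ones, by 0.93 ± 0.18 on the log2 scale for GFP virus (adjusted p = 0.00658) and by 1.32 ± 0.19 for Cre virus (adjusted p = 0.000567). Cdkn1a, which encodes the cyclin-dependent kinase inhibitor p21, was 384 and 455 CPM without virus, 458 to 928 CPM (median 560) with GFP virus and 657 to 983 CPM (median 744) with Cre virus. The lowest GFP library was only just above the higher uninfected one, and the log2 difference of 0.61 ± 0.24 did not pass the test (adjusted p = 0.118), whereas that of 0.89 ± 0.24 for Cre virus did (adjusted p = 0.0223).

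Trp53inp1, which makes a nuclear protein of the p53 stress response, was 47.4 and 89.4 CPM in the 2 uninfected libraries, the largest ratio between them of any member. It was 78.5 to 148 CPM with GFP virus, which overlapped the uninfected range (log2 difference 0.65, adjusted p = 0.139), and 110 to 192 CPM with Cre virus, which did not (1.06, adjusted p = 0.0179).

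Mdm2, the ubiquitin ligase that limits p53, was 97.8 and 85.4 CPM without virus, 121 to 189 CPM with GFP virus and 155 to 224 CPM with Cre virus. Both infected sets lay wholly above the uninfected one, with log2 differences of 0.74 ± 0.18 (adjusted p = 0.0191) and 1.04 ± 0.18 (adjusted p = 0.00223).

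Of the cell-death genes, Bbc3, which encodes the BH3-only protein PUMA, was 28.1 and 36.3 CPM without virus, 44.6 to 53.5 CPM with GFP virus and 50.0 to 61.4 CPM with Cre virus. It was higher with both viruses, by 0.62 (adjusted p = 0.00424) and 0.80 (adjusted p = 0.000609) on the log2 scale. Bax, the pore-forming protein of the mitochondrial outer membrane, was 131 and 80.9 CPM without virus, 111 to 185 CPM with GFP virus and 135 to 186 CPM with Cre virus, and passed in neither comparison (adjusted p = 0.212 and 0.0939).

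Phlda3, a repressor of Akt signaling, was 72.0 and 87.5 CPM without virus, 109 to 175 CPM with GFP virus and 152 to 184 CPM with Cre virus. Its log2 differences were 0.80 (adjusted p = 0.00452) and 1.10 (adjusted p = 0.000438), with no overlap. Zmat3, a zinc finger protein that binds RNA, was 95.7 and 99.6 CPM without virus, 114 to 150 CPM with GFP virus and 128 to 151 CPM with Cre virus, with smaller differences of 0.39 (adjusted p = 0.016) and 0.51 (adjusted p = 0.00238). Trp53 mRNA was 175 and 111 CPM without virus, 156 to 239 CPM with GFP virus and 148 to 206 CPM with Cre virus, so both infected sets overlapped the uninfected one, although both differences passed the test (0.57, adjusted p = 0.0173, and 0.44, adjusted p = 0.0375).

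**Figure D1:**
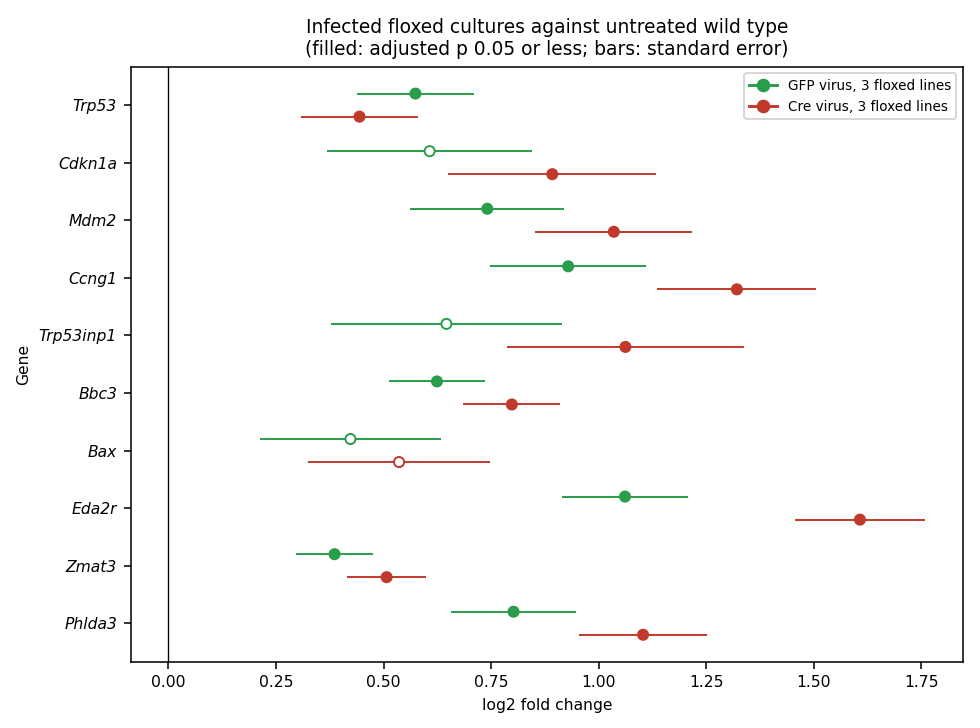
Log2 difference (x axis) of each of the 10 genes from uninfected WT cells, for GFP virus and for Cre virus without IL-1b, with bars of 1 SE; filled symbols mark an adjusted p of 0.05 or less. All 20 points lie above 0, from 0.39 for Zmat3 with GFP virus to 1.61 for Eda2r with Cre virus, and both sets are measured from the same 2 uninfected libraries.

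These calls rest on 2 uninfected libraries. Without WT untreated replicate 2, Trp53 (adjusted p = 0.294), Mdm2 (0.274), Ccng1 (0.0836) and Zmat3 (0.166) were no longer called for GFP virus, which left 3, and Trp53 (0.423), Cdkn1a (0.168) and Mdm2 (0.0587) were no longer called for Cre virus. Without WT untreated replicate 1, Cdkn1a (0.0882) and Trp53inp1 (0.159) were no longer called for Cre virus. Trp53 also lost its call for Cre virus without any 1 of 5 infected libraries (Ldha f/f GFP replicate 1, Ldha f/f Cre replicate 2, Nampt f/f GFP replicate 1 and both Nampt f/f Cre replicates, adjusted p = 0.0503 to 0.0624), and Cdkn1a did so without Nampt f/f Cre replicate 1 (0.0584). Within the second library set alone, 2 members were called for GFP virus and 5 for Cre virus. With limma voom in place of edgeR, Trp53 (adjusted p = 0.0566), Mdm2 (0.126) and Zmat3 (0.0942) were not called for GFP virus, and Trp53 (0.0951), Cdkn1a (0.105) and Trp53inp1 (0.093) were not called for Cre virus. With the WT FX11 libraries counted as uninfected too, Zmat3 was called for neither virus (adjusted p = 0.403 and 0.125) and Mdm2 was not called for GFP virus (0.111).

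RNA of cell-type markers also differed in the same comparison. The summed levels were not tested, and some differed widely between the 2 uninfected libraries. All 6 macrophage markers were lower in infected cells, with a summed level of 38.6 and 107 CPM in the uninfected libraries, 11.5 to 19.1 CPM with GFP virus and 12.2 to 25.0 CPM with Cre virus. Of these markers only C1qa was ever at 0, in 2 libraries. The summed level of the 9 chondrocyte markers was 96400 and 98700 CPM without virus, 72400 to 93300 CPM with GFP virus and 49400 to 84800 CPM with Cre virus. The summed levels of 4 fibroblast, 4 skeletal muscle and 3 erythroid markers were also lower in every infected library than in both uninfected ones. Fibroblast markers were 5160 and 6510 CPM without virus, 512 to 4020 CPM with GFP virus and 478 to 3600 CPM with Cre virus. Muscle markers were 31.8 and 180 CPM, 4.57 to 29.8 CPM and 5.07 to 30.8 CPM in that order, and erythroid markers were 3.29 and 38.9 CPM, 1.17 to 2.24 CPM and 0.724 to 2.44 CPM. The 4 endothelial markers were 6.38 and 11.4 CPM without virus and 3.30 to 4.53 CPM with GFP virus, whereas the 2.36 to 14.0 CPM with Cre virus overlapped the uninfected values. In bulk RNA, fewer cells of a type and less RNA per cell cannot be told apart, and the part of these shifts in the p53 target values was not tested.

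Averaged over the 3 floxed lines and over cultures with and without IL-1b (24 libraries), 9 of the 10 genes were higher with Cre than with GFP virus. Only Trp53 itself was lower. The 9 genes were called higher against 26.0% of the 14119 genes tested and Trp53 was called lower against 28.8%. The average did not hold in each line. In Nfkbiz f/f cells the log2 difference without and with IL-1b was -0.02 and -0.05 for Bax and 0.08 and 0.02 for Cdkn1a. For Trp53 it was 0.16 with IL-1b. The median log2 difference of the 10 genes was 0.34, beside -0.02 for all genes tested. Since so many genes were called in both directions, a call alone does not set these genes apart. Neither does non-overlap of the libraries, because its share over all genes was not taken. The sizes are given for each gene.

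**Figure D2:**
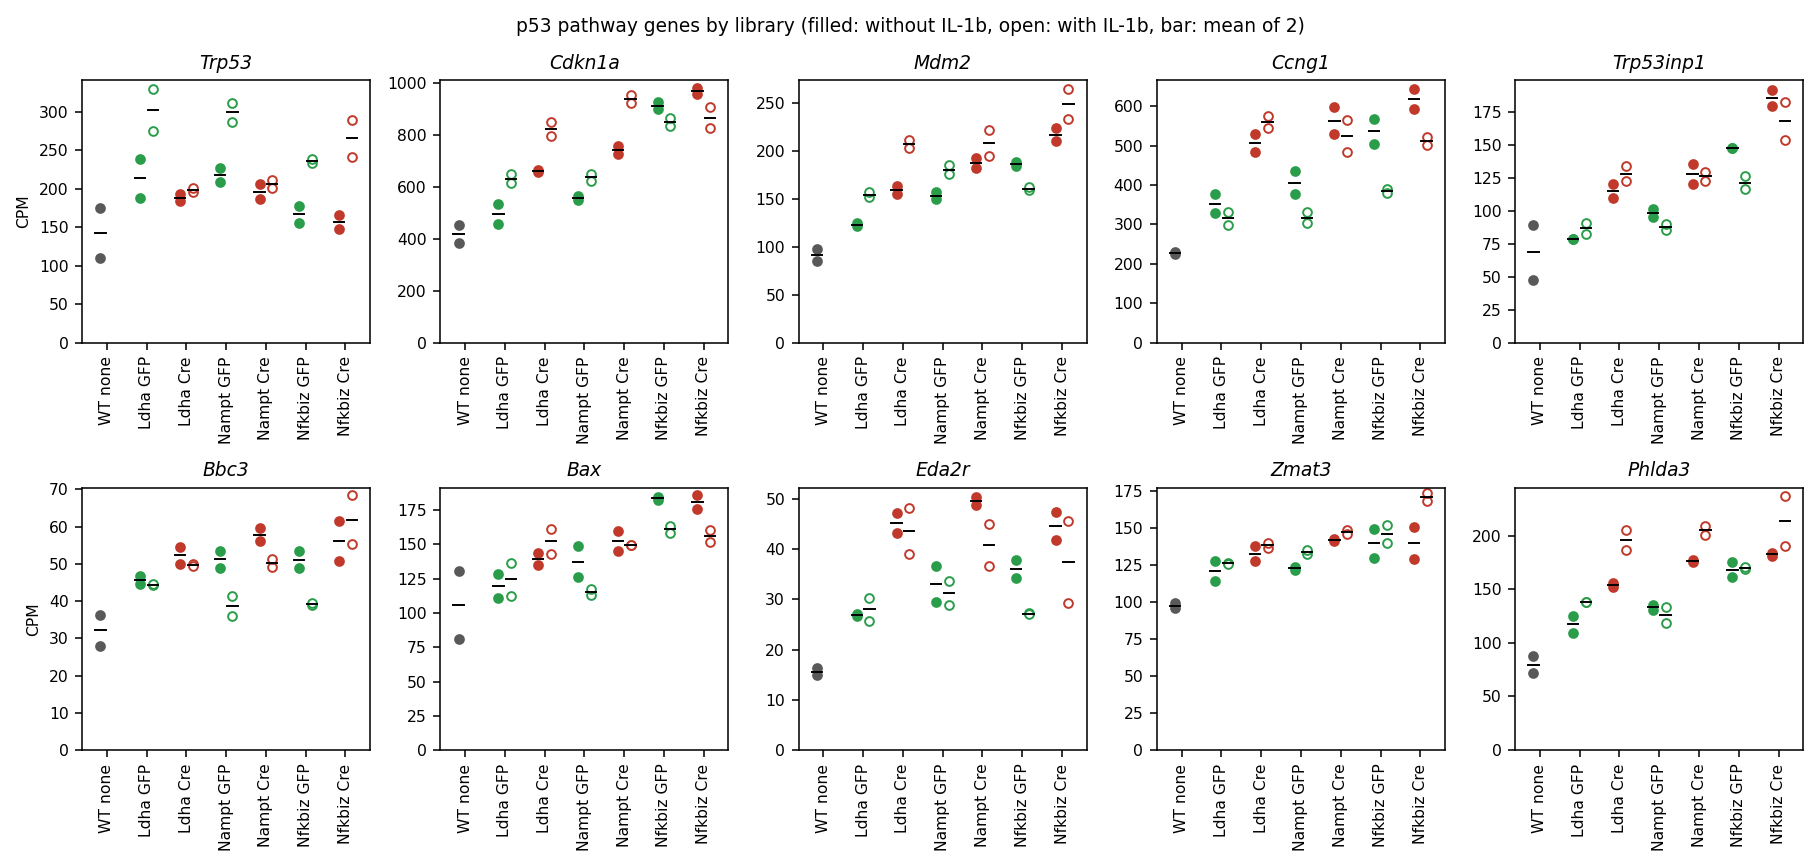
CPM of the 10 genes (y axes, 1 panel a gene) in each library (x axes, by line and virus), gray for uninfected, green for GFP virus and red for Cre virus, filled without and open with IL-1b, the bar being the mean of 2. In Ccng1, Mdm2, Phlda3 and Bbc3 every Cre library with IL-1b lies above every GFP library with IL-1b, whereas the Trp53 panel shows the opposite order with IL-1b in the Ldha f/f and Nampt f/f lines. The share of all genes that separate in this way was not taken.

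Ccng1 rose the most, by 0.54 ± 0.028 on the log2 scale (45.1% higher, adjusted p = 4.2e-13). With IL-1b it was 299 to 389 CPM (median 331) in the 6 GFP libraries and 483 to 575 CPM (median 532) in the 6 Cre libraries, which did not overlap. Without IL-1b the sets overlapped, because the Nfkbiz f/f GFP libraries, at 569 and 504 CPM, reached the range of the Cre libraries.

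Cdkn1a rose by 0.32 ± 0.03 (1.25-fold, adjusted p = 7.12e-09). With IL-1b it was 615 to 868 CPM (median 651) with GFP virus and 796 to 957 CPM (median 881) with Cre virus. The overlap came from the Nfkbiz f/f line, whose GFP libraries were at 838 and 868 CPM with IL-1b and at 901 and 928 CPM without it, above the 458 to 568 CPM of the other GFP libraries without IL-1b. Trp53inp1 rose by 0.48 ± 0.031 (1.39-fold, adjusted p = 1.77e-11), and its Cre libraries lay above the GFP libraries of the same line in all 3 lines, with and without IL-1b.

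Mdm2 rose by 0.37 ± 0.028 (1.29-fold, adjusted p = 2.58e-10). With IL-1b it was 152 to 185 CPM (median 161) with GFP virus and 195 to 265 CPM (median 216) with Cre virus, without overlap. Without IL-1b its Cre libraries were also above the GFP libraries of the same line in all 3 lines.

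In the cell-death group Eda2r rose by 0.53 ± 0.054 (1.44-fold, adjusted p = 2.86e-08), Bbc3 by 0.29 ± 0.041 (1.22-fold, adjusted p = 3.29e-06) and Bax by 0.17 ± 0.033 (1.13-fold, adjusted p = 0.000124). Eda2r with IL-1b was 25.7 to 33.8 CPM with GFP virus and 29.3 to 48.3 CPM with Cre virus, so that 5 of the 6 Cre libraries were above all GFP libraries. Bbc3 with IL-1b was 36.1 to 44.6 CPM against 49.2 to 68.5 CPM, without overlap. Bax with IL-1b was 113 to 164 CPM against 143 to 161 CPM, and its Cre range lay inside the GFP range. In the Nfkbiz f/f line Bax did not rise, with a log2 difference of -0.02 without and -0.05 with IL-1b.

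Phlda3 rose by 0.42 ± 0.034 (1.33-fold, adjusted p = 9.21e-10), from 119 to 171 CPM (median 138) with GFP virus to 187 to 237 CPM (median 203) with Cre virus in the cultures with IL-1b, without overlap. Zmat3 had the smallest rise, 0.15 ± 0.032 (1.11-fold, adjusted p = 0.000473), and its ranges overlapped with IL-1b (126 to 152 CPM against 137 to 173 CPM) and without it.

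Trp53 mRNA fell by 0.22 on the log2 scale (SE 0.038, adjusted p = 3.31e-05). With IL-1b it was 233 to 330 CPM (median 281) with GFP virus and 196 to 290 CPM (median 206) with Cre virus, and 4 of the 6 Cre libraries lay below every GFP library. In cultures without IL-1b alone, the difference was -0.13 and did not pass the test (adjusted p = 0.0643), as was so for Zmat3 (0.12, adjusted p = 0.0875). Within the second library set alone, Bax (adjusted p = 0.0789) and Zmat3 (adjusted p = 0.0708) did not pass. All 10 calls were kept when any 1 of the 24 libraries was left out.

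The effect of Cre virus was then taken in each line and treatment on its own, with 2 libraries against 2. In Ldha f/f cells without IL-1b, 6 of the 10 genes were higher with Cre (Cdkn1a, Mdm2, Ccng1, Trp53inp1, Eda2r and Phlda3), against 3.43% of all genes tested. The largest was Eda2r, at 26.7 and 27.1 CPM with GFP virus and 47.1 and 43.2 CPM with Cre virus (log2 difference 0.74, adjusted p = 0.00404). This count fell to 2 without Ldha f/f Cre replicate 1 and to 3 without Cre replicate 2.

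With IL-1b the same 6 symbols were higher in Ldha f/f cells, against 16.9% of all genes, and Trp53 was lower, against 17.0%. Ccng1 was 332 and 299 CPM with GFP virus and 575 and 544 CPM with Cre virus (log2 difference 0.86, adjusted p = 3.51e-05), and Trp53 was 330 and 275 CPM against 196 and 201 CPM (-0.58, adjusted p = 0.003). With the library set as a block, Bax (adjusted p = 0.00265), Zmat3 (0.0263) and Bbc3 (0.0397) were called higher as well.

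In Nampt f/f cells without IL-1b, 7 of the 10 were higher, the 6 above and Zmat3, against 8.30% of all genes. Cdkn1a was 552 and 568 CPM with GFP virus and 759 and 729 CPM with Cre virus (log2 difference 0.41, adjusted p = 0.000549). Zmat3 lost its call without 1 of 5 of the 8 libraries of the line (adjusted p up to 0.173) and Mdm2 without 1 of them (0.0827). With the block, Bax (adjusted p = 0.0161) and Bbc3 (0.0459) were also higher and Trp53 was lower (-0.15, adjusted p = 0.00439).

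With IL-1b, 8 of the 10 were higher in Nampt f/f cells, all targets but Zmat3, against 25.0% of all genes, and Trp53 was lower, against 23.4%. Phlda3 was 134 and 119 CPM with GFP virus and 209 and 201 CPM with Cre virus (log2 difference 0.70, adjusted p = 6.96e-06), and Trp53 was 312 and 287 CPM against 211 and 201 CPM (-0.54, adjusted p = 5.98e-05). Zmat3 was called with the block (adjusted p = 0.0078). Mdm2, at 185 and 176 CPM against 222 and 195 CPM, lost its call without 1 of 4 of the 8 libraries of the line, Eda2r without 1 of 2 and Bax without 1.

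The Nfkbiz f/f line without IL-1b gave no member called in either direction with edgeR, against 0.111% of all genes called higher. Before adjustment 2 were under 0.05, Trp53inp1 (147 and 148 CPM with GFP virus, 192 and 179 CPM with Cre virus, adjusted p = 0.441) and Mdm2 (184 and 189 CPM against 224 and 210 CPM). DESeq2 and limma voom also called 0 members, with 1 and 4 under 0.05 before adjustment. Cdkn1a in this arm was 901 and 928 CPM with GFP virus and 959 and 983 CPM with Cre virus, and the Cre pair was the highest of the gene in any condition.

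With IL-1b the Nfkbiz f/f line had 4 members higher, against 8.16% of all genes. They were Bbc3 (38.9 and 39.4 CPM against 55.4 and 68.5 CPM, log2 difference 0.65, adjusted p = 0.00325), Mdm2 (159 and 162 CPM against 265 and 233 CPM, 0.62), Trp53inp1 (126 and 116 CPM against 183 and 154 CPM, 0.46) and Ccng1 (389 and 379 CPM against 521 and 501 CPM, 0.40). Ccng1 and Trp53inp1 each lost the call without 1 of 2 of the 8 libraries of the line. Trp53 was 233 and 239 CPM against 290 and 242 CPM, so the fall seen in the other lines was not seen here.

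**Figure D3:**
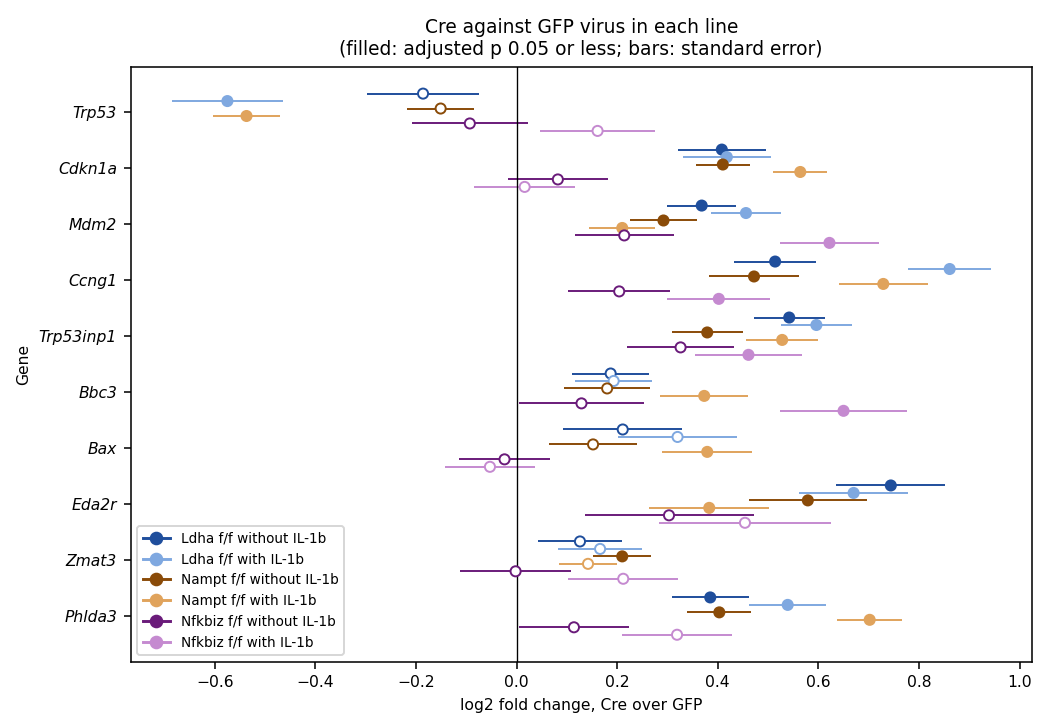
Log2 difference of Cre virus from GFP virus (x axis) for each of the 10 genes in each line, without and with IL-1b, with bars of 1 SE and filled symbols for an adjusted p of 0.05 or less. Trp53 stands at -0.58 and -0.54 in the Ldha f/f and Nampt f/f lines with IL-1b, and Cdkn1a at 0.08 in the Nfkbiz f/f line without IL-1b against 0.41 in the other 2 lines.

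The difference of the Cre effect between lines was tested directly across the 24 libraries. It passed for 5 of the 10 genes, against 30.3% of the 15732 genes tested. These were Cdkn1a (adjusted p = 0.000211), Ccng1 (0.000538), Trp53 (0.00124), Bax (0.00925) and Phlda3 (0.0162), the last of which missed the threshold without Nfkbiz f/f GFP replicate 1 (0.0539). It did not pass for Mdm2 (0.0618), Eda2r (0.151), Trp53inp1 (0.216), Bbc3 (0.245) or Zmat3 (0.894).

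No member differed between the Ldha f/f and Nampt f/f lines with edgeR, where 0.769% of all genes did; 1 member, Mdm2, had an unadjusted p under 0.05, and limma voom called 1. Against the Nfkbiz f/f line, 5 members differed from Ldha f/f (23.4% of all genes) and 6 from Nampt f/f (33.3% of all genes). The Cre effect on Cdkn1a was larger by 0.35 in Ldha f/f (adjusted p = 0.00102) and by 0.41 in Nampt f/f (adjusted p = 0.000124) than in Nfkbiz f/f, on the log2 scale. That on Ccng1 was larger by 0.37 and 0.27, that on Bax by 0.30 and 0.28, and that on Phlda3 by 0.23 and 0.31, while that on Trp53 was lower by a log2 difference of -0.42 and -0.40. Mdm2 went the other way, with a Cre effect of -0.19 in Nampt f/f relative to Nfkbiz f/f (adjusted p = 0.0353). Both Nfkbiz f/f replicates are in the second library set, while the other lines have a replicate in each, so the line and the set cannot be fully told apart.

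Other genes differed between the lines in the same contrast. The Cre effect on all 9 chondrocyte markers was lower in Ldha f/f and in Nampt f/f than in Nfkbiz f/f (medians -0.71 and -0.81), as was that on 12 and 13 of 13 cell-cycle genes (medians -0.77 and -0.75). Over all genes tested, the medians of these contrasts were -0.009 for Ldha f/f and -0.025 for Nampt f/f, and 12.5% and 17.3% were called lower. The part of the markers and cell-cycle genes in the differences of the p53 targets was not tested.

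The 2 arms with and without IL-1b were compared for the size of the Cre effect. It differed for 4 of the 10 genes, against 34.1% of the 15145 genes tested, a share near that of the background. The Cre effect was larger with IL-1b for Ccng1 by 0.24 ± 0.056 on the log2 scale (adjusted p = 0.00174), for Bbc3 by 0.22 (adjusted p = 0.0476) and for Phlda3 by 0.20 (adjusted p = 0.033). For Trp53 it was lower by a log2 difference of -0.20 (adjusted p = 0.0461). Ccng1 kept its call without any 1 library, whereas Trp53 lost it for 18 of the 24 libraries left out (adjusted p up to 0.134), Bbc3 for 16 (up to 0.12) and Phlda3 for 13 (up to 0.0858).

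IL-1b itself moved the 10 genes in mixed directions. In GFP-infected cells 4 were higher with IL-1b, against 29.5% of all genes, and 2 were lower, against 26.7%. Trp53 had the largest rise, from 156 to 239 CPM (median 199) without IL-1b to 233 to 330 CPM (median 281) with it, a log2 difference of 0.54 ± 0.053 (adjusted p = 1.14e-08). Cdkn1a (0.19), Mdm2 (0.16) and Zmat3 (0.13) rose by less, and Zmat3 lost its call without 1 of 4 of the 24 libraries (Ldha f/f GFP, Ldha f/f GFP + IL-1b, Nfkbiz f/f GFP or Nfkbiz f/f GFP + IL-1b, each replicate 1, adjusted p up to 0.0837). The Nfkbiz f/f line went the other way for the first 2 genes, with Cdkn1a at 901 and 928 CPM without IL-1b and 838 and 868 CPM with it, and Mdm2 at 184 and 189 CPM against 159 and 162 CPM, so the averaged rises came from the other 2 lines. This difference between lines was not tested. Ccng1 fell by 0.28 (adjusted p = 2.03e-06) and Bbc3 fell by 0.22 (adjusted p = 0.00252) on the log2 scale.

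In Cre-infected cells 5 were higher with IL-1b, against 30.2% of all genes. Trp53 rose by 0.34 ± 0.053 (adjusted p = 1.05e-05), Phlda3 by 0.30 (adjusted p = 1.48e-05), Mdm2 by 0.28, Cdkn1a by 0.20 and Zmat3 by 0.17. In the Nfkbiz f/f line Cdkn1a was again lower with IL-1b, at 827 and 910 CPM against 959 and 983 CPM. None was called lower by edgeR, with 1 at an unadjusted p under 0.05 (Eda2r, -0.16), and limma voom called 1 lower. Ccng1 (-0.04) and Bbc3 (-0.01) were not called there.

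**Figure D4:**
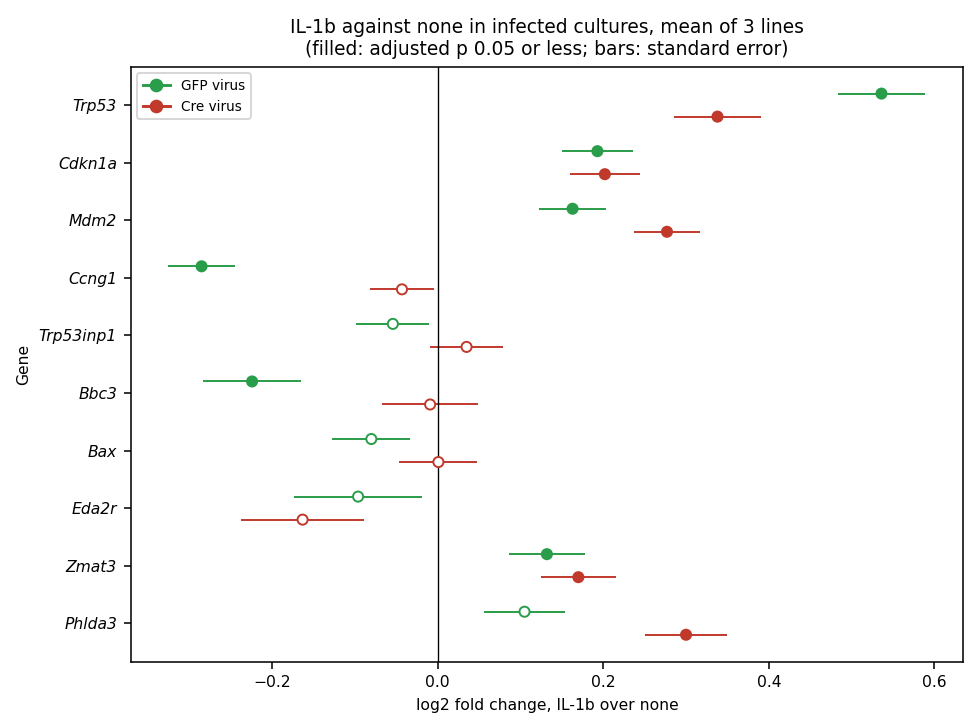
Log2 difference of cultures with IL-1b from those without (x axis) for each of the 10 genes, in GFP-infected and in Cre-infected cells (12 libraries each), with bars of 1 SE and filled symbols for an adjusted p of 0.05 or less. Trp53 is the highest in both, at 0.54 and 0.34, and Ccng1 stands at -0.28 with GFP virus and -0.04 with Cre virus.

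A further list of 29 p53 targets, sorted by role, gave the wider pathway. With Cre against GFP virus, 15 of the 29 were higher and 4 lower, against 26.0% and 28.8% of all genes, with a median log2 difference of 0.13. The genes of cell death were the most uniform, with 7 of 8 higher and 0 lower (median 0.28; the 1 not called, Fas, had an unadjusted p of 0.67 in edgeR). Perp, a membrane protein of p53-dependent apoptosis, rose by 1.13 ± 0.037 on the log2 scale (adjusted p = 1.37e-16), Pmaip1, which encodes the BH3-only protein Noxa, rose by 1.38 ± 0.061 (adjusted p = 2.14e-14), and Pidd1, a death-domain adaptor, rose by 0.72 ± 0.052 (adjusted p = 1.05e-10). With IL-1b, Pmaip1 was 4.40 to 7.73 CPM in GFP libraries and 18.7 to 23.7 CPM in Cre libraries, without overlap, and Perp was 15.8 to 36.6 CPM against 44.9 to 77.2 CPM, also without overlap.

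Of 8 growth-arrest genes 4 were higher and 1 lower (median 0.17), where 26.0% of all genes were higher and 28.8% lower. Btg2, an antiproliferative factor, rose by 0.47 ± 0.03 (adjusted p = 1.08e-11), Sfn, the 14-3-3 protein sigma, rose by 0.60 ± 0.063 (adjusted p = 4.43e-08) and Ptprv, a receptor tyrosine phosphatase, rose by 0.41 ± 0.061 (adjusted p = 7.51e-06). The lower gene was Plk2 (-0.10, adjusted p = 0.0021). Gadd45a (0.01, adjusted p = 0.808), Plk3 (0.13, adjusted p = 0.0591) and Psrc1 (0.03, adjusted p = 0.565) were not called. Exons of Ptprv, Gadd45a and Plk3 overlap those of genes on the opposite strand. Whether counting used the strand is not given in the sources used here.

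Of 5 DNA repair and nucleotide genes 2 were higher and 1 lower, counts near the 26.0% and 28.8% over all genes. Ercc5 (0.23) and Xpc (0.19), both of nucleotide excision repair, rose, and Rrm2b, the p53-inducible ribonucleotide reductase subunit, fell by 0.23. Of 5 stress-metabolism genes 1 was higher (Sesn2, a regulator of the mTORC1 kinase, 0.14) and 1 lower (Dram1, a lysosomal protein, -0.21), and Ddit4 had 0.03 (adjusted p = 0.432). Among 3 feedback genes, Ppm1d, the phosphatase that switches off the damage kinases, rose by 0.35, the noncoding RNA gene Trp53cor1, whose exons also overlap an opposite-strand gene, fell by 0.44, and Mdm4 had -0.07 (adjusted p = 0.102).

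**Figure D5:**
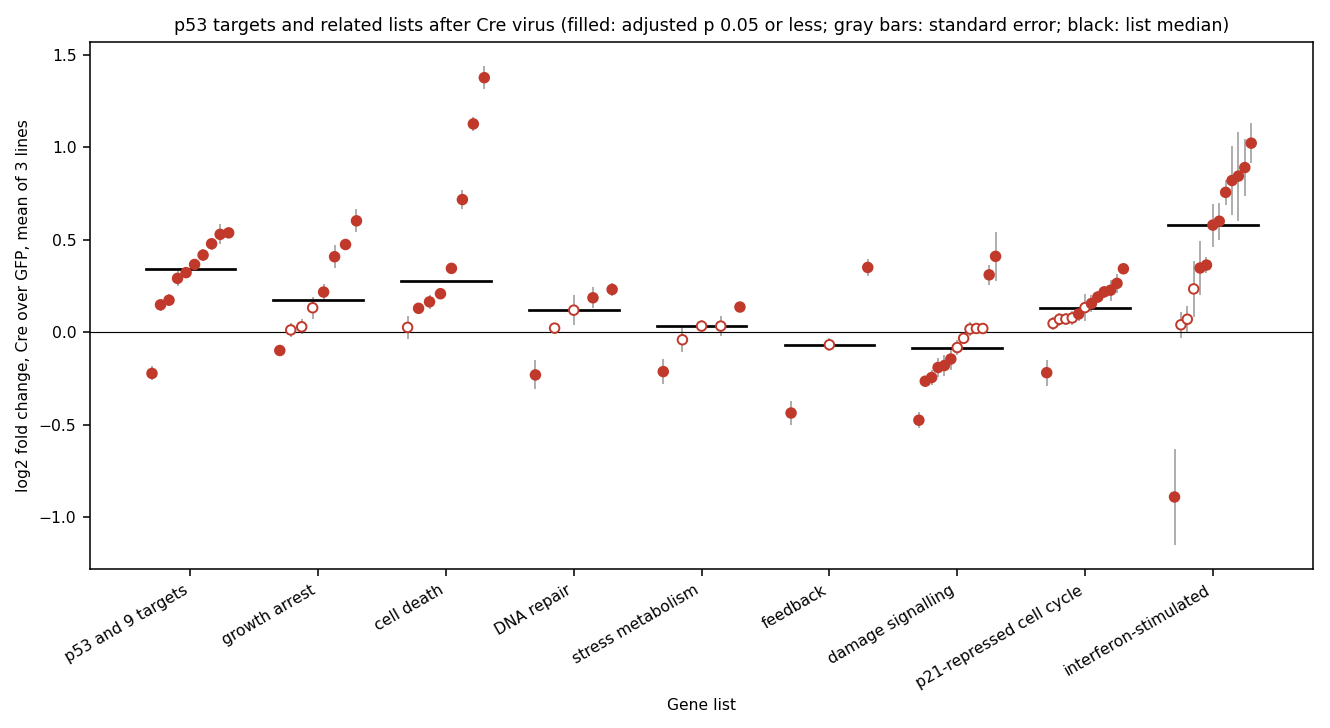
Log2 difference of Cre virus from GFP virus, averaged over 3 lines (y axis), for each gene of each list, 1 column of points a list (x axis); the black bar in each column is the list's median, gray bars are 1 SE and filled points are genes called at an adjusted p of 0.05 or less. The cell-death targets (median 0.28) lie above 0 and the DNA damage signaling genes (median -0.08) straddle it.

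Against uninfected cells, 15 of these 29 targets were higher and 0 lower with GFP virus (median 0.57), against 4.84% and 6.23% of all genes. With Cre virus 17 were higher and 1 lower (median 0.72), against 8.33% and 9.78%. In edgeR none was lower with GFP virus at an adjusted p of 0.05; Sesn1 was the nearest (-0.81, adjusted p = 0.0557). Pmaip1 was 0.878 and 1.17 CPM without virus, 2.93 to 7.26 CPM with GFP virus (log2 difference 2.30, adjusted p = 0.00305) and 7.26 to 13.3 CPM with Cre virus (3.26, adjusted p = 0.000254). Btg2 was 28.0 and 28.5 CPM without virus, 53.9 to 71.6 CPM with GFP virus and 75.6 to 102 CPM with Cre virus. The 3 sets of Btg2 values did not overlap.

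Of 13 genes that sense and signal DNA damage, 2 were higher and 6 lower with Cre than with GFP virus (median -0.08), against 26.0% and 28.8% of all genes, the higher ones being Brca1 (0.31), a repair protein, and Cdkn2a (0.41), an inhibitor of Mdm2 and of cyclin-dependent kinases. Hipk2, a kinase that phosphorylates p53, fell by 0.48 ± 0.043 (adjusted p = 3.71e-09), Atm, the kinase activated by double-strand breaks, had -0.26 ± 0.029 (adjusted p = 7.46e-08), and Mdc1, a scaffold at breaks, had -0.24 ± 0.042 (adjusted p = 3.71e-05). These transcript levels do not report the activity of the kinases.

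Cell-cycle genes that p21 is known to repress differed by line. With Cre against GFP virus averaged over the 3 lines, 7 of 13 were higher and 1, Cenpf, lower (median 0.13), against 26.0% and 28.8% of all genes. In Ldha f/f and Nampt f/f cells the medians of the 13 were -0.04 (both lines) without IL-1b and -0.15 and -0.12 with it. With IL-1b, 4 and 3 were called lower, against 17.0% and 23.4% of all genes. In Nfkbiz f/f cells the medians were 0.44 without IL-1b and 0.82 with it. There 9 of 13 were higher with IL-1b, against 8.16% of all genes. Whether Cdkn1a had a part in this difference between lines was not tested. In the averaged comparison Top2a, which encodes DNA topoisomerase II alpha, rose by 0.34 ± 0.026 (adjusted p = 1.66e-10). Mki67 (0.22) and Cdc20 (0.19, exons overlapping an opposite-strand gene) rose too. Against uninfected cells 0 of the 13 were called with either virus by edgeR, with median log2 values of 1.13 and 1.24.

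Genes that interferon induces, as a virus can, were also taken. Of 17, 13 were high enough to test for Cre against GFP virus, and 9 were higher and 1, Cxcl10, lower (median 0.58), against 26.0% and 28.8% of all genes. Bst2, which tethers budding virus particles, rose by 0.76 ± 0.069 (adjusted p = 4.75e-09), Isg15, a ubiquitin-like protein, rose by 1.02 ± 0.11 (adjusted p = 3.85e-08), and Ddx58, the RNA sensor RIG-I, rose by 0.36 ± 0.044 (adjusted p = 3.51e-07). The levels were low and variable, Isg15 being 0.905 to 8.50 CPM in Cre libraries and 0.62 to 2.85 CPM in GFP libraries without IL-1b, and 0.632 and 6.88 CPM in the uninfected libraries.

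Marker lists of the cell types the cultures could hold moved in the same contrast. All 9 chondrocyte markers were lower with Cre virus (median -0.57), against 28.8% of all genes. The 3 with the lowest p were Hapln1 (-1.36), Col11a1 (-0.72) and Col9a1 (-0.57). The summed level of all 9 with IL-1b was 25800 to 32600 CPM with GFP virus and 13400 to 39000 CPM with Cre virus. All 6 IL-1b response genes were lower, among them Nfkbiz (-1.19), which is itself deleted in 1 line, Lcn2 (-1.33) and Saa3 (-1.17). Of 4 fibroblast markers 3 were lower (Col3a1, -0.68; Col1a1, -0.20; Pdgfra, -0.15), and neither of the 2 macrophage markers tested, Csf1r (-0.12) and Cd68 (0.02), was called, with unadjusted p of 0.291 and 0.662 in edgeR. Of the 2 endothelial markers tested Kdr was higher (2.25), from 0.531 to 1.85 CPM with GFP virus to 0.637 to 10.5 CPM with Cre virus without IL-1b, and Tek was not called (0.25). Of the 2 muscle markers tested Acta1 was higher (0.50) and Myh3 was not called (-0.29), and the 4 epithelial and 3 erythroid markers were too low to test. The summed level of the 4 epithelial markers was nevertheless 0.487 to 1.53 CPM (median 1.17) with GFP virus and 1.00 to 9.33 CPM (median 4.17) with Cre virus without IL-1b, and 0.892 to 2.23 CPM (median 1.61) against 0.508 to 21.3 CPM (median 12.7) with it. Perp and Sfn, given among the p53 targets above, are also genes of epithelial cells. Markers at 0 in some of the 32 libraries were Krt14 (16 libraries), Ckm (8), Krt5 (3), Cdh1 and C1qa (2 each), and Cdh5, Myog, Epcam and Hbb-bs (1 each). The part of these shifts in the p53 target values was not tested.

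Uninfected WT cultures given FX11 or IL-1b are shown as values only, because 2 of their libraries went against the labels. In the first library set all 10 genes were higher in the FX11 library than in the untreated library. Neither library has a replicate within that set, and the share of all genes higher in the same pair was not taken. The count of 10 therefore does not set these genes apart, and an effect of FX11 on them was not tested. Cdkn1a was 384 CPM untreated, 715 CPM with FX11, 660 CPM with IL-1b and 777 CPM with both, and Mdm2 was 97.8, 182, 123 and 194 CPM in that order. Ccng1 was 225 CPM untreated and 376 CPM with FX11, and Eda2r was 16.3 and 33.1 CPM.

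In the second set the order depends on labels that are in doubt. Cdkn1a was 455 CPM untreated, 359 CPM in the library labelled FX11, 508 CPM in the library labelled IL-1b and 494 CPM with both. Ccng1 was 230 CPM untreated, 168 CPM in the library labelled FX11 and 251 CPM in the library labelled IL-1b. By the labels FX11 was thus lower than untreated for both genes, and with these 2 labels exchanged it would be higher for both. The uninfected FX11 library of the first set received no virus. Its Cdkn1a and Mdm2 were within the ranges of both the GFP and the Cre libraries without IL-1b. Its Ccng1 (376 CPM) and Eda2r (33.1 CPM) lay within the GFP ranges (330 to 569 and 26.7 to 37.9 CPM). Both lay below the Cre ranges (484 to 645 and 41.9 to 50.5 CPM).

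The genes whose level followed Cdkn1a most closely over the 16 condition means were Bcl2l1 (Pearson r = 0.94), Laptm4b (0.93), Phlda3 (0.92), Bax (0.90) and Mdm2 (0.89). Of the remaining members Trp53inp1 had 0.88, Ccng1 0.83, Eda2r 0.75, Bbc3 0.67 and Zmat3 0.55, and Trp53 mRNA had 0.18. These values are descriptions over conditions that share lines, library sets and, in part, the label conflict above.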

How the data were processed

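The authors prepared ribosome-depleted libraries, aligned reads with STAR to Ensembl 76 (GRCm38) and counted uniquely aligned, unambiguous reads per gene with featureCounts; strand use is not given in the sources used here. Their deposited files give the count, the CPM (count over library total) and the RPKM of each gene. From the deposited count, 355 ribosomal RNA genes were left out, genes needed more than 1 CPM in at least 1 library (in fits of 24 libraries averaged over lines or IL-1b, in all but 1 library of the smallest group), and CPM and RPKM were recomputed with TMM over 32 libraries. Groups came from the labels. Differences were tested two-sided with edgeR 4.0.16 (quasi-likelihood; R 4.3.3), Benjamini-Hochberg adjusted over all genes tested and called at 0.05 or less, with the library set as a term except in fits of 1 line. The method was tested on simulated data. Alternatives were limma 3.58.1 voomWithQualityWeights, DESeq2 1.42.0, other scalings, filters and blocks, and leaving out each library.

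Library sets paired the replicates of the Ldha f/f and Nampt f/f lines, whose deviations between sets correlated at 0.33 to 0.54 and 0.34 to 0.45 over 6 pairs of conditions each. Library totals limit precision to counting error at best. The 10 genes and all lists were chosen with earlier results of these data known. Every member is named, and of each further list the 3 genes with the lowest p in the averaged Cre comparison; other genes named from the lists were chosen after their values were seen. The genes most like Cdkn1a were ranked by Pearson correlation of log2(CPM + 0.5).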

Additional observations from a re-analysis of the deposited data

Results flagged for a closer look

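In 40 sets of 6 libraries (10 genes by virus and IL-1b), 1 library stood far from the other 5. Bbc3 was 68.46 CPM in Nfkbiz f/f Cre + IL-1b replicate 2, while the others were 49.2 to 55.4 CPM. Chance flags about 1 in 20 groups.

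The Cre effect differed between the 3 lines, by a test of the difference itself, for Cdkn1a (adjusted p = 0.000211), Ccng1 (adjusted p = 0.000538), Trp53 (adjusted p = 0.00124), Bax (adjusted p = 0.00925) and Phlda3 (adjusted p = 0.0162). Of all 15732 genes tested, 30.3% passed this test. The Cre effect differed between cultures with and without IL-1b for Ccng1 (adjusted p = 0.00174), Phlda3 (adjusted p = 0.033), Trp53 (adjusted p = 0.0461) and Bbc3 (adjusted p = 0.0476). This count was near the share of 34.1% over all genes. Only Ccng1 kept its call without any 1 of the 24 libraries, whereas Trp53 lost it for 18, Bbc3 for 16 and Phlda3 for 13.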

How the results depend on the processing

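In the averaged Cre comparison all 10 calls held with DESeq2, limma voom, RLE and upper-quartile factors (the last chosen after seeing the data), other filters, no library set term (no replicate block), and without any 1 library. Of all genes, 7737 were called, against 3146 in the libraries without IL-1b (where 0 members were lower), 4607 without the Nampt f/f line and 4728 in library set 2. For the difference with IL-1b, RLE and no replicate block left 0 members lower (1 as reported), and leaving out 1 library gave 1 to 3 higher and 0 to 1 lower; the range was -0.0326 to 0.0443 for Cdkn1a, -0.000642 to 0.0732 for Zmat3 and -0.186 to 0.0244 for Eda2r. The difference between lines had 4 to 9 called, 9 without Nfkbiz f/f Cre + IL-1b replicate 1.

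With the library set as replicate block, genes called without IL-1b went from 877 to 1994 (51.6% higher, 62.1% as reported) in Ldha f/f and from 2319 to 4311 in Nampt f/f, where 1 member became lower; it changed no call beyond those given above. A fit of all 24 floxed libraries called 1463 in Ldha f/f without IL-1b. Leaving out 1 library gave 289 to 766 genes and 2 to 6 members in Ldha f/f (lowest without Cre replicate 1) and 1332 to 2167 genes in Nampt f/f (lowest without Cre replicate 2).

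For Nfkbiz f/f without IL-1b, 40 genes became 71 with DESeq2, 170 without a filter and 256 in the 24-library fit (54.9%, 71.8% and 75.4% higher, 42.5% as reported), which called 1 member and had Zmat3 at 0.0096; without 1 library there were 21 to 54, with Bbc3 at -0.0174 to 0.252, Bax at -0.0733 to 0.0141 and Zmat3 at -0.117 to 0.098. With IL-1b, 2666 genes and 4 members became 4366 and 7 in the 24-library fit, and 1290 to 3733 and 2 to 5 without 1 library (Cdkn1a -0.0575 to 0.0884).

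Against no virus, limma voom called 4 members for GFP virus (7 as reported) and 625 genes (1753), 23.5% of them higher (43.7%), and 6 members (9) and 1367 genes for Cre virus (2867), 32.6% higher (46.0%). Library set 2 alone gave 2 members and 780 genes for GFP virus and 5 members and 973 genes for Cre virus. Counting FX11 libraries as uninfected gave 3194 genes for GFP virus, and adding only that of set 1, chosen after seeing the data, 4 members. Without 1 library, GFP virus had 3 to 8 members and 617 to 2039 genes (Bax -0.0687 to 0.983), and Cre virus 1167 to 3467 genes, lowest each time without WT untreated replicate 2.

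For IL-1b in Cre-infected cells, voom called 1 member lower, Bbc3 had 0.00049 with RLE and Bax -0.00228 without a replicate block. Without 1 library, 0 to 1 were lower, Bax was -0.0598 to 0.0477, Bbc3 -0.0682 to 0.0368 and Trp53inp1 -0.0108 to 0.069. No scaling moved the all-gene median by over 0.1. The cause of these changes was not tested. In the averaged Cre comparison low counts left untested 4 of 17 interferon genes, 4 of 6 macrophage, 2 of 4 endothelial and 2 of 4 muscle markers, and all 4 epithelial and 3 erythroid markers.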
